A study of Saccharomyces cerevisiae S288C with 6 samples.

Results

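The proteasome genes of budding yeast were compared between wild type cells and cells without LTV1. The 40 genes, of 7126 in the deposited table, were chosen by name. They encode the 14 subunits of the 20S core, 10 subunits of the 19S base and 9 of the 19S lid, the 3 core assembly and capping factors UMP1, ADD66 and BLM10, the transcription factor RPN4, and CDC48 with its partners UFD1 and NPL4. The cells were of strain S288C, the strain of the reference genome. The control group was wild type (strain EDS76), and the other group was homozygous for a deletion of LTV1, ltv1∆/ltv1∆ (strain EDS615). LTV1 encodes a factor that helps assemble the small ribosomal subunit. Each genotype is known from 1 strain. Both were grown in YPD, a rich glucose medium, at 30 °C and collected at an optical density of 0.5 to 0.6. Each group had 3 libraries, in which a tag near the 3' end of each mRNA was read. The recovered reads came to between 1002573 and 1248710 per library.

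The proteasome is the protease that degrades proteins marked with ubiquitin. Its core is a barrel of alpha and beta rings, with the proteolytic sites inside on the beta rings. The 19S particle at either end has a base, whose ring of ATPases unfolds substrates, and a lid that removes ubiquitin. The ATPase Cdc48, with Ufd1 and Npl4, pulls ubiquitinated proteins out of complexes and membranes and hands them on. In yeast the factor Rpn4 binds a short promoter element of most proteasome genes and is itself degraded by the proteasome, which forms a feedback loop.

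That element, written GGTGGCAAA, was searched on both strands of the window from 250 bases before to 50 bases after each gene's start. It lay in the windows of 28 of the 40 genes (70.0%), against 72 of 6020 protein-coding genes (1.20%), a count that includes the 28. As most proteasome genes are known to carry it, the high share describes these genes and is no new result. Each of the 28 windows held it once, with between 75 and 174 bases (median 113) between it and the gene start. In 20 it was on the strand of the gene and in 8 on the opposite strand. It was found in 12 of the 14 core genes, all 6 base ATPase genes, 2 of 4 other base genes, 7 of 9 lid genes and CDC48. Stretches around it are shown for genes at both ends of the range of response, read along the strand of the gene in build R64, with the element in capitals.
RPT1, chrXI:174048-174076: attaccgaatTTTGCCACCcgaaaactaa
PRE4, chrVI:249959-249987: tggtttagaaTTTGCCACCttaaatacgt
PRE8, chrXIII:86841-86869: agcttattaaGGTGGCAAAattgtccccg
CDC48, chrIV:238787-238815: atgtgaattcGGTGGCAAAaaaggacata
RPN5, chrIV:190776-190804: ttgacttttcGGTGGCAAAatgcaaaggg
RPN1, chrVIII:164838-164866: tgtgttttacGGTGGCAAAaggcgagcac

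Among the 12 genes without the exact element, 8 held a stretch in which 1 of the 9 letters differed, a search added after the values were seen. With 1 letter allowed to differ the share was 36 of 40 genes (90.0%), against 7.54% of all protein-coding genes. The 8 fell into 2 spellings. AGTGGCAAA lay in the windows of PRE5, PUP1, RPN8 and NPL4 (0.714% of all genes), and GGTGGCGAA in those of RPN10, RPN13, SEM1 and UFD1 (0.449% of all genes). UMP1, ADD66, BLM10 and RPN4 had no stretch this close, and for UMP1 2 letters of the closest one differed. One example of each is shown, with the 9 letters in capitals.
NPL4, chrII:578144-578172: cagaacgaagAGTGGCAAAtaataggaca
SEM1, chrIV:1202007-1202035: tagtgctatgGGTGGCGAAcgtggtgggc
UMP1, chrII:582267-582295: gtaaccatgcAGTGGCAATtttatcctac
A match is a description of these letters and was not tested as a binding site.

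The whole window is shown for RPT1, an ATPase of the base that passed the test described below. It is chrXI:173963-174262 on the plus strand, with the element in capitals.
RPT1: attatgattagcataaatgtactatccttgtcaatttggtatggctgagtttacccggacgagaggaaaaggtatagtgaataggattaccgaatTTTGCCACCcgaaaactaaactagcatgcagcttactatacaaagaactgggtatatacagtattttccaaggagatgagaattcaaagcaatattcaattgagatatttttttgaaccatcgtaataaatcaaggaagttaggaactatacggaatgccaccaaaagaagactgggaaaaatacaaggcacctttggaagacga

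The label of 1 library or more was at odds with its LTV1 reads. The normalized read counts of LTV1 (YKL143W) were 29.2, 191 and 8.77 across the wild type libraries, numbered 1 to 3, and 680.1, 3.22 and 6.40 across the deletion libraries. The highest value thus stood in a library labelled as the deletion, and wild type 3 was near the low ones. The gene beside LTV1, RPC25, had 1, 5 and 2 reads in wild type and 19, 17 and 17 in the deletion, so its values split by label. In 21.6% of all genes tested the deletion values all lay above the wild type values. No source used here says what RPC25 should read in either genotype, so its split cannot check the labels. No source used here says whether the tags lie in the deleted part. Directions below follow the labels, and the counts over the 40 genes and the values of RPT1 and UMP1 are also given without wild type 3 and ltv1 deletion 1.

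Most proteasome genes had lower values in the libraries labelled ltv1 deletion, by a modest factor, and few passed the test. RPT1 and UMP1 fell, 2.57-fold and 2.82-fold (limma, adjusted p = 0.0227 and 0.0286), and no member rose. Fold changes were taken on the log2(value + 1) scale, and a negative one means a lower value in the deletion libraries. Of the 40 genes, 36 had a negative log2 fold change, against 50.8% of the 5663 genes tested, and the median was -0.47 against -0.02 for all genes tested. In 22 of the 40 the 3 deletion values all lay below the 3 wild type values, against 20% of all genes, and in 0 of the 40 they all lay above, against 21.6%. Because all 40 were read in the same libraries, these counts are not 40 separate observations. Each of the 22 had an exact two-sided permutation p of 0.1, the smallest that 3 libraries against 3 can give. In a bulk culture, less transcript per cell and fewer cells that hold it cannot be told apart.

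Counted by test, 2 of the 40 were lower at a limma adjusted p under 0.05, where 6.98% of all genes were lower, so the share of single genes past the threshold was not above the background. At an unadjusted p under 0.05 12 of the 40 were lower, against 16.9% of all genes. None was higher with limma (0 adjusted, where 8.88% of all genes were higher, and 0 at an unadjusted p under 0.05, against 17.8%). With edgeR on the recovered reads 5 were lower (background 9.25%) and 0 higher (background 10.5%). The 5 were RPT1, UMP1, PRE4, PRE8 and NPL4. DESeq2 gave 8 lower (background 10.6%) and 0 higher (background 11.6%), adding RPT3, PUP1 and CDC48. In the authors' deposited table all 40 had an adjusted p of 1, and 35 had a negative log2 fold change. That table's fold changes were -0.82 for RPT1 and -0.69 for UMP1, smaller than with limma. Its mean count for UMP1, 154.4, is not the mean over the libraries used here, whose group means were 206 and 67.3. The fold changes set side by side here may thus not cover the same libraries, and how the authors' were estimated is not stated. For CDC48 it gave -0.516 (SE 0.159) with an unadjusted p of 0.970, which a test for any difference would not give. The authors' p-values thus answer another question than those above. No source used here states how their test was set.

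The number of genes past the threshold rested on the libraries used. Limma called 0 of the 40 when ltv1 deletion 1, 2 or 3 was left out. It also called 0 when wild type 3 and ltv1 deletion 1 were left out together. At an unadjusted limma p under 0.05, 7 were lower without ltv1 deletion 1, 2 or 3. The shares over all genes were 13.6%, 14.0% and 12.6%. Without both libraries 4 of the 40 were lower, against 12.2% of all genes. The count over all genes fell too, from 395 lower to 70, 97 and 17 without ltv1 deletion 1, 2 and 3, and to 4 without both. In that last fit the median was -0.37, and 35 of the 40 were negative. There 24 of the 40 had no overlap and were lower, against 30.5% of all genes. Without wild type 1 the median was -0.36, 36 were negative, and 22 had no overlap and were lower, against 23.4% of all genes.

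**Figure D1:**
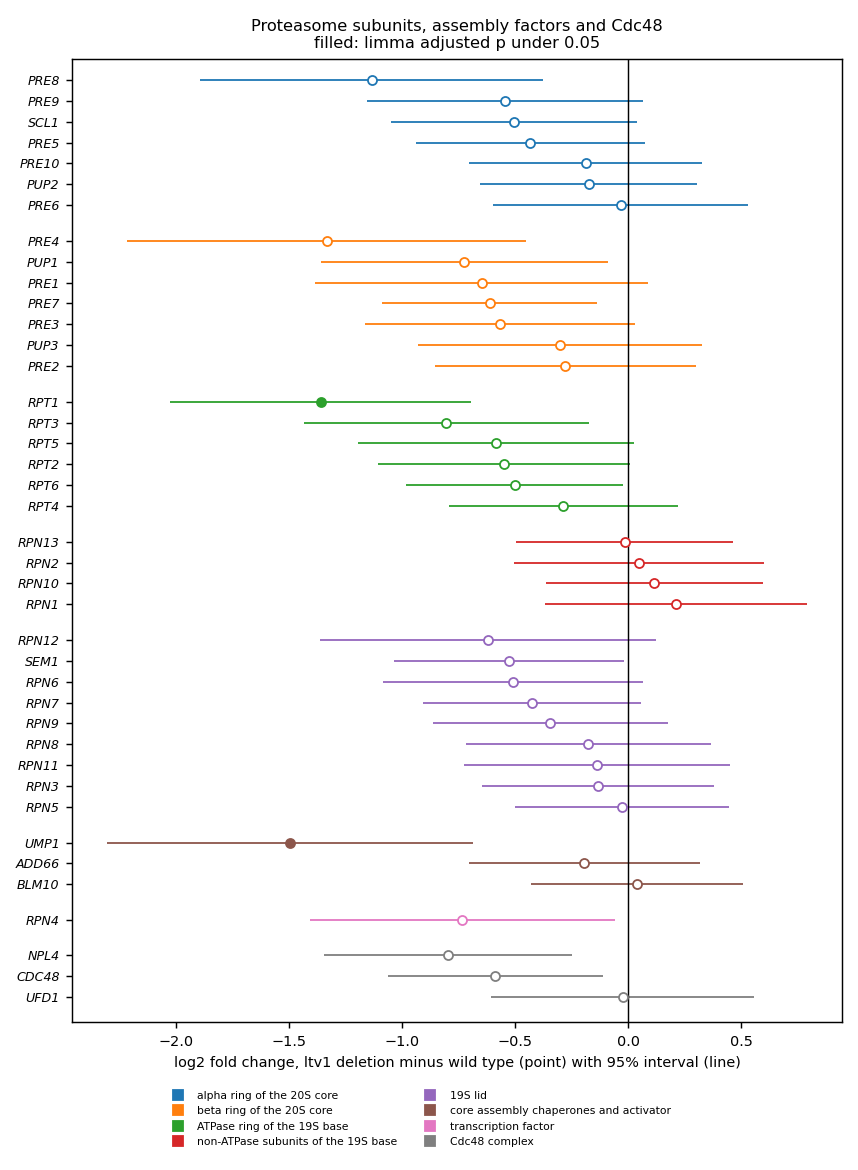
Log2 fold change of each of the 40 genes (x axis, log2(value + 1) scale, negative where the deletion is lower), by subcomplex (colours), with limma's 95% interval as a line and filled points for an adjusted p under 0.05. RPT1 at -1.36 and UMP1 at -1.50 are filled, and the 4 base subunits without ATPase activity sit between -0.02 and 0.21.

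The gene for the assembly factor UMP1, which sits inside the half-built core and is degraded once the core closes, had the largest difference of the 40. UMP1 (YBR173C, chromosome II, 581726 to 582172) had normalized read counts of 311, 122 and 184 in wild type 1, 2 and 3, and of 62.0, 74.2 and 65.8 in the deletion libraries. The deletion values lay close together and below all wild type values. The means were 206 ± 96.4 and 67.3 ± 6.21 (SD, n = 3 each), and the log2 fold change was -1.50 (SE 0.35). The limma call ended without wild type 3 (adjusted p = 0.0642) and without ltv1 deletion 1, 2 or 3 (0.0867, 0.0713 and 0.0884). With wild type 3 and ltv1 deletion 1 left out together the log2 fold change was -1.47 (limma adjusted p = 0.152). Values of the other 2 genes of this group overlapped between genotypes. ADD66, which helps the alpha ring form, had 119, 93.7 and 90.6 in wild type and 79.9, 89.2 and 94.1 in the deletion. BLM10, whose protein caps the core in place of the 19S particle, had a log2 fold change of 0.04 (95% interval -0.43 to 0.51).

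RPN4, the transcription factor of the family, was 204, 139.5 and 121 in wild type and 69.4, 97.8 and 109 in the deletion. The groups did not overlap, but the gap between the lowest wild type and the highest deletion value was small. The log2 fold change of -0.73 (SE 0.29) missed the threshold with limma (adjusted p = 0.120) and edgeR (0.0833). Its protein is controlled largely by degradation, which these RNA data do not measure.

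The alpha ring of the core, which gates entry to the proteolytic chamber, had a median log2 fold change of -0.43 over 7 genes, all negative. Of these 4 had no overlap, and the share over all genes, 20%, is the background for this count in each subcomplex. PRE8 (YML092C) stood at 226, 122 and 111 in wild type and at 62.0, 81.7 and 55.7 in the deletion. It had the largest difference of this ring, -1.14 (SE 0.33), just outside the limma threshold (adjusted p = 0.0534) and past it with edgeR (0.0256). PRE9, the only core subunit gene that yeast can lose, had 707, 404 and 556 against 344, 402 and 369. Its wild type 2 value nearly met the highest deletion value. SCL1 had 179, 131 and 162 against 94.6, 127 and 109.7, and PRE5 had 472, 399 and 473 against 286, 347 and 364. Both were lower in each deletion library than in each wild type library, and neither passed a test (limma adjusted p = 0.169 and 0.199). PRE10, PUP2 and PRE6 overlapped between groups, with log2 fold changes of -0.19, -0.18 and -0.03.

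In the beta ring, which carries the proteolytic sites, all 7 genes were negative as well, with a median of -0.61 (-0.38 without wild type 1) and 5 without overlap. PRE4 (YFR050C) stood at 166, 63.5 and 68.2 in wild type and at 33.6, 38.7 and 32.9 in the deletion, from 32 to 171 reads. Wild type 1 was more than double the other wild type libraries, but those too lay above the deletion. The log2 fold change of PRE4 was -1.33 (SE 0.38, limma adjusted p = 0.0519, edgeR 0.0235), and it was -0.89 without wild type 1 (limma adjusted p = 0.0460). PUP1, the trypsin-like catalytic subunit, had 478, 257 and 311 against 205, 201 and 205. Its deletion values differed by little, and the log2 fold change was -0.72 (limma adjusted p = 0.108, DESeq2 0.0450). PRE3, the caspase-like subunit, had 332, 209 and 246 against 167, 153 and 205, a narrow gap. PRE2, the chymotrypsin-like subunit, overlapped, with 1245, 885 and 1391 against 863, 965 and 1032 and a log2 fold change of -0.28. The 3 catalytic subunits thus all had negative fold changes that missed the threshold with limma and edgeR, and PUP1 passed it with DESeq2. Of the others, PRE7 had 316, 266 and 266 against 185, 181 and 186, among the tightest separations of the core (-0.61, limma adjusted p = 0.0787). PRE1 had 423, 194 and 241 against 193, 164 and 159.9. Its wild type 2 value nearly met the highest deletion value, and its log2 fold change was -0.65, or -0.33 without wild type 1. PUP3 overlapped at -0.30.

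**Figure D2:**
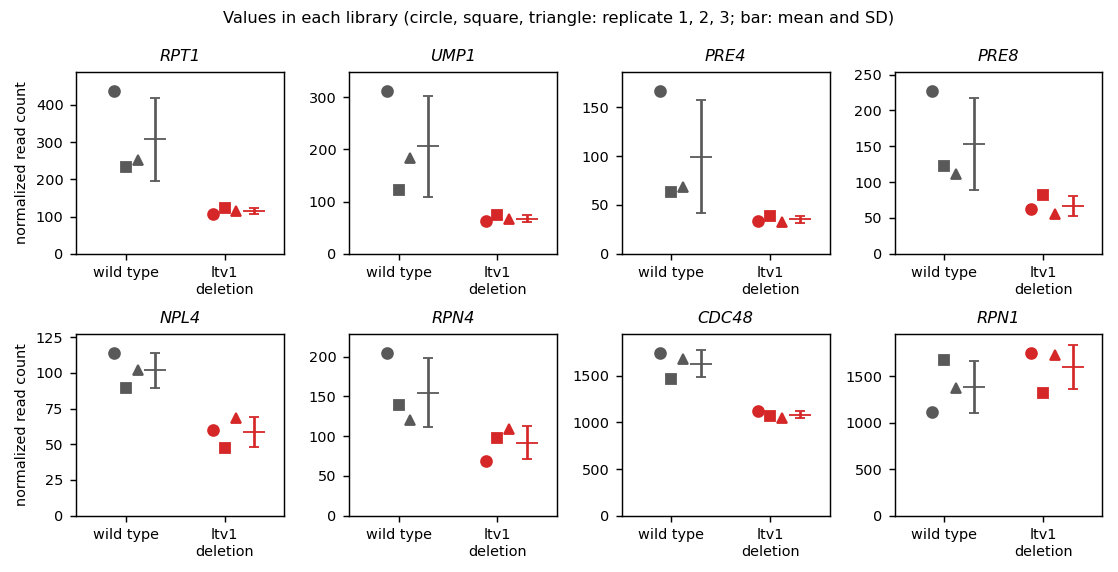
Normalized read count (y axis, from 0) of 8 genes in each library, grey for wild type and red for ltv1 deletion, with circles, squares and triangles for replicates 1, 2 and 3 and bars for the mean and SD (n = 3). In UMP1, RPT1, PRE4 and PRE8 wild type 1 is the highest value and the deletion libraries lie together, while in RPN1 wild type 1 is the lowest.

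Within the 19S base the 6 ATPase genes and the 4 other genes differed in their fold changes. The ATPases had a median of -0.57, all were negative, and 5 of 6 had no overlap, against 20% of all genes. The other 4, RPN1, RPN2, RPN10 and RPN13, had a median of 0.08 (-0.01 without wild type 1), and all 4 overlapped between groups. The ranges of the fold changes of these 2 sets, -1.36 to -0.29 and -0.02 to 0.21, did not meet. The difference between the sets was seen after the fact and was not tested, and these fits share the same libraries.

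RPT1 (YKL145W, chromosome XI, 174213 to 175616) had the largest difference among the ATPases. Its normalized read counts were 436, 234 and 252 in wild type and 107, 123 and 114 in the deletion. Every wild type value was well above the deletion values, with means of 308 ± 112 and 115 ± 7.66 (SD, n = 3 each). The log2 fold change of RPT1 was -1.36 (SE 0.29, limma adjusted p = 0.0227, edgeR 0.0106), and it lay between -1.53 and -1.08 with any 1 library left out. The limma call ended without ltv1 deletion 1, 2 or 3 (adjusted p = 0.0721, 0.0659 and 0.0727) and without both libraries at odds with their LTV1 reads (-1.43, adjusted p = 0.112). RPT1 lies close to LTV1 on the chromosome. Its 3' end faces that of RPC25, an RNA polymerase III subunit gene, across 226 bases, and 1164 bases separate it from LTV1. RPC25 had 0.972, 5.21 and 1.95 in wild type and 20, 18.3 and 15.5 in the deletion, and it rose (limma adjusted p = 0.0153). Its wild type 1 and 3 values lay under the worth of 3 reads, which was 2.74 to 3.22. The part of this location in the value of RPT1 was not tested.

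RPT3 was the next of the ATPases, at 817, 530.1 and 519 against 289, 353 and 413 (-0.80, limma adjusted p = 0.0813, DESeq2 0.0257). RPT2 had 736, 479 and 521 against 385, 377 and 402, and RPT5 had 657, 385 and 479 against 289, 359 and 345. RPT6 stood at 1195, 973 and 1155 against 771, 774 and 792. In these 4 the groups did not overlap, with log2 fold changes between -0.80 and -0.50, and limma called none. RPT4 overlapped, with -0.29.

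RPN1 and RPN2 are the large scaffold subunits of the base, and RPN10 and RPN13 are its ubiquitin receptors. RPN1 had 1113, 1673 and 1375 in wild type and 1746, 1322 and 1724 in the deletion, and wild type 1 was its lowest library. The log2 fold change was 0.21 with a 95% interval of -0.37 to 0.79, and it moved to 0.06 or 0.36 when wild type 1 or 2 was left out. RPN10 had 121, 116 and 121 against 139.8, 114 and 134 (0.11, 95% interval -0.37 to 0.59). RPN2 and RPN13 were at 0.05 and -0.02, with intervals of -0.51 to 0.60 and -0.50 to 0.47. All 4 intervals included 0.

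The lid, which carries the deubiquitinase RPN11, had a median of -0.34 over 9 genes, all negative, and 4 had no overlap, against 20% of all genes. SEM1, a small subunit needed to build the lid, had 319, 291 and 393 against 223, 222 and 244 (-0.53, limma adjusted p = 0.133). RPN6, which clamps the lid to the core, had 788, 498 and 725 against 484, 465 and 438. RPN7 had 993, 902 and 1099 against 733, 707 and 783. All 3 were lower in every deletion library, and none passed limma or edgeR. RPN9 had 307, 225 and 231 against 194, 190.2 and 210.2, again without overlap. RPN12 had a log2 fold change of -0.62, the largest of the lid, but its deletion values of 78.8, 163 and 132 ran into the wild type values of 229, 156 and 173. RPN8, RPN11, RPN3 and RPN5 lay between -0.18 and -0.03 and overlapped.

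CDC48 and NPL4 were lower without overlap, and UFD1 was not. CDC48 (YDL126C) had 1739, 1466 and 1683 in wild type and 1126, 1069 and 1050.0 in the deletion. The spread within each group was small next to the gap, with means of 1629 ± 144 and 1082 ± 39.4 (SD, n = 3 each), and a log2 fold change of -0.59 (SE 0.20). It missed the threshold with limma (adjusted p = 0.0874) and edgeR (0.106) and passed with DESeq2 (0.0422). NPL4 (YBR170C) had 114, 89.6 and 102 against 59.9, 47.3 and 68.5, a log2 fold change of -0.80 (SE 0.24, limma adjusted p = 0.0579, edgeR 0.0350). UFD1, whose protein binds Cdc48 together with Npl4, had 190.5, 195 and 218 against 201, 153 and 251 and a log2 fold change of -0.02 (95% interval -0.61 to 0.56).

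By library, the 40 genes stood furthest apart within wild type. Relative to the mean of all 6 libraries, their mean log2 value was 0.44, 0.02 and 0.21 over wild type 1 to 3, and -0.26, -0.25 and -0.16 over ltv1 deletion 1 to 3. The SD between libraries was 0.21 in wild type and 0.05 in the deletion. Wild type 1 was the highest of the 6 libraries in 28 of the 40 genes (70.0%, against 28.0% of all genes). Wild type 1 and wild type 3 each exceeded all 3 deletion libraries in 32 of the 40, and wild type 2 did so in 23, against 40.0%, 35.6% and 33.8% of all genes. Within wild type the beta ring ran from -0.04 to 0.74, the ATPases from 0.08 to 0.68, and UMP1, ADD66 and BLM10 together from 0.00 to 0.62. The 4 other base genes ran the other way in wild type 1, at -0.22. Without wild type 1 the median was -0.37 for the core, -0.41 for the ATPases, -0.20 for the lid, -0.54 for the Cdc48 complex and -0.01 for the other 4 base genes. The part of the state of wild type 1 in these values was not tested.

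**Figure D3:**
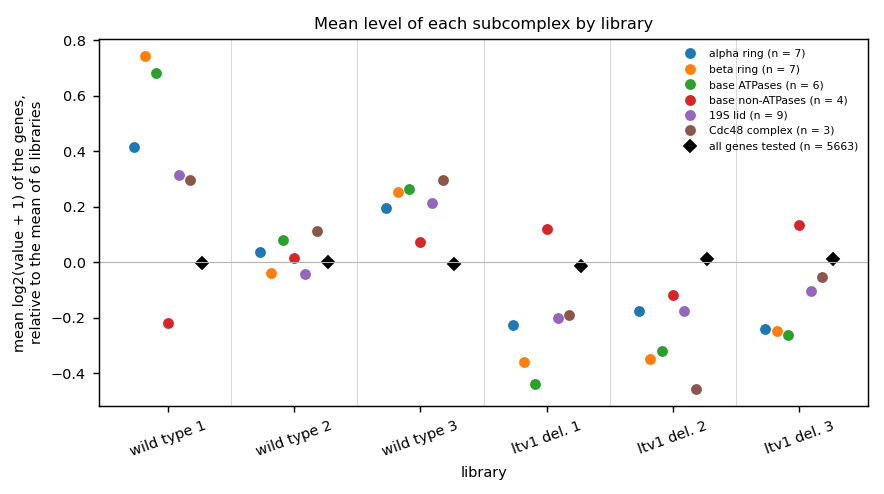
Mean log2(value + 1) of the genes of each subcomplex in each library, relative to the mean of the 6 libraries (y axis, log2 units), with all 5663 genes tested as black diamonds. The beta ring reaches 0.74 and the ATPases 0.68 in wild type 1, the alpha ring, beta ring, ATPases, lid and Cdc48 complex lie below 0 in all 3 deletion libraries, and all genes stay near 0.

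The fold changes were then set beside the promoter element. The 28 genes with it had a median log2 fold change of -0.50, from -1.36 for RPT1 to 0.21 for RPN1, and 16 of them had no overlap and were lower. The 12 without it had a median of -0.31, from -1.50 for UMP1 to 0.11 for RPN10, and 6 of them had no overlap and were lower. The share over all genes was 20%. Both ranges cover nearly the same span, and the difference was not tested. RPN1 and PRE6 (-0.03) carry the same 9 letters as RPT1 and PRE4. Of the 2 spellings that differ in 1 letter, the genes with AGTGGCAAA ranged from -0.80 to -0.18 and those with GGTGGCGAA from -0.53 to 0.11.

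**Figure D4:**
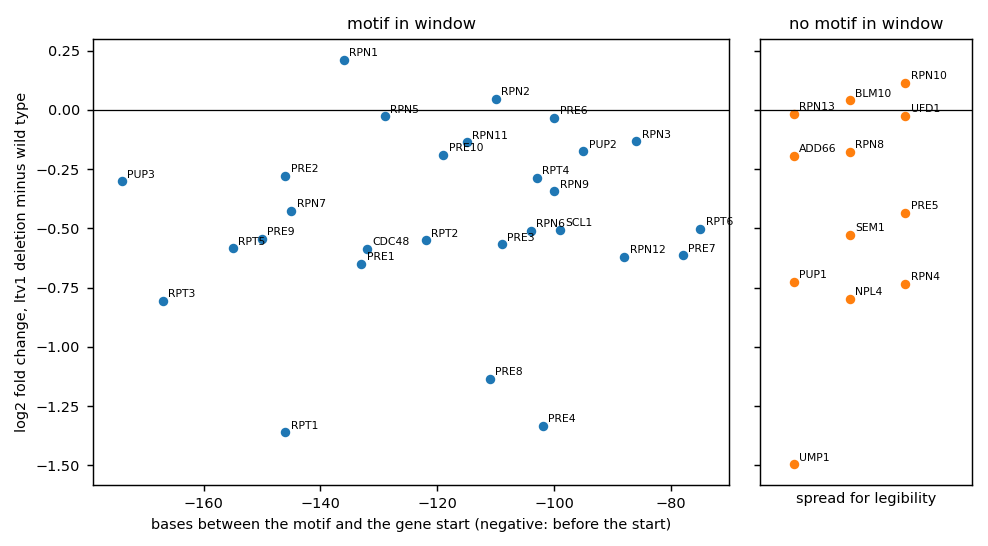
Log2 fold change (y axis, negative where the deletion is lower) of the 28 genes with the Rpn4 element in the promoter window against the bases between the element and the gene start (left), and of the 12 genes without it (right, spread sideways for legibility). Fold changes from -1.36 to 0.21 occur at distances of 75 to 174 bases, and UMP1 at -1.50 is among the genes without the element.

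Of 36 other genes of the same pathway, 5 fell with limma (background 6.98%) and 0 rose (background 8.88%). With edgeR 6 fell (background 9.25%) and 0 rose (background 10.5%). DESeq2 gave 6 lower (background 10.6%) and 0 higher (background 11.6%). At an unadjusted limma p under 0.05, 11 were lower, against 16.9% of all genes, and 1 was higher, against 17.8%. The median of the 36 was -0.33, and 30 of 36 were negative, against 50.8% of all genes. Without overlap, 17 were lower, against 20% of all genes, and 3 were higher, against 21.6%. The 5 that fell with limma were the base assembly chaperone TMA17, the polyubiquitin gene UBI4, the shuttle receptor DDI1, and the Cdc48 cofactors UBX5 and UBX6. TMA17, which acts when demand for proteasomes is high, had 74.8, 63.5 and 131 in wild type and 23.1, 33.3 and 28.3 in the deletion, a 2.98-fold fall (limma adjusted p = 0.0210). UBI4, which makes chains of ubiquitin under stress, had 652, 333 and 520.5 against 203, 156 and 231 (-1.31, adjusted p = 0.0294). DDI1, which brings ubiquitinated proteins to the proteasome, had 272, 185 and 230.0 against 123, 111 and 114 (-0.96, adjusted p = 0.0303). These 3 genes were separated between the groups by wide gaps. UBX5 and UBX6, adaptors of Cdc48, stood at -1.32 and -1.03 (adjusted p = 0.0206 and 0.0466), UBX5 from only 10 to 43 reads.

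The ubiquitin ligase gene HUL5, whose product acts at the proteasome, was the sixth with edgeR (-0.97 with limma, adjusted p = 0.0722, edgeR 0.0380). Another base chaperone gene, NAS2, had -1.05 (limma adjusted p = 0.0569) from 7 to 28 reads. The remaining base chaperones NAS6, RPN14 and HSM3 lay between -0.29 and 0.13. IRC25 and POC4, partners in one chaperone pair for the alpha ring, stood at 0.47 and -0.58, each without overlap and neither past the threshold (adjusted p = 0.168 and 0.199). Among the Cdc48 cofactors VMS1, which acts on stalled ribosome products and damaged mitochondria, had the opposite sign to most, with 91.4, 137 and 158 against 219, 192 and 184 (0.65, adjusted p = 0.128). The genes for activators of RPN4 transcription, YAP1, PDR1, PDR3 and HSF1, ranged from -0.25 to 0.08. UBR2 and MUB1, which target Rpn4 for degradation, were at -0.36 and -0.08, and both overlapped between groups. Of the 2 other genes listed with them, UBR1 was at -0.57 without overlap (limma adjusted p = 0.121) and RAD6 was at 0.15 with overlap. Left-out libraries moved the count of 5: limma called 0 without ltv1 deletion 1, 2 or 3, and 2 without wild type 1 or wild type 3. Over all genes 220 and 219 were lower without wild type 1 and wild type 3, against 395 in the main test.

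**Figure D5:**
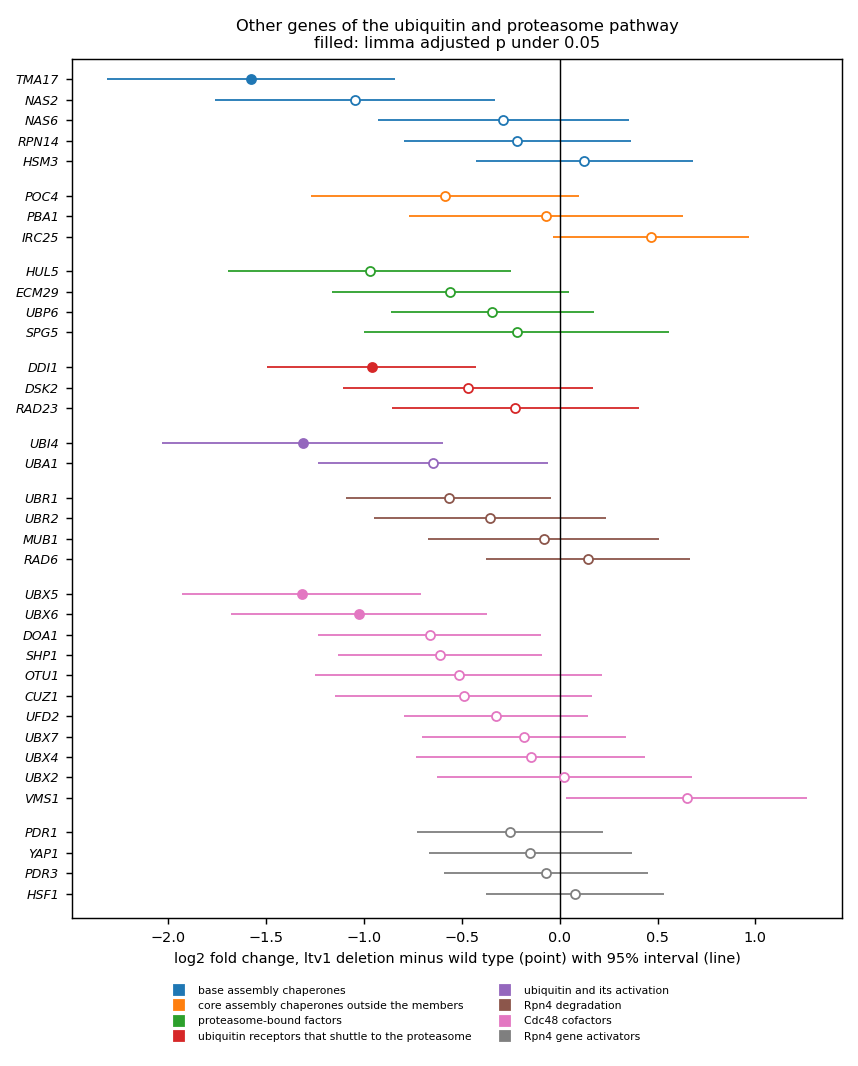
Log2 fold change of 36 other genes of the ubiquitin and proteasome pathway (x axis, negative where the deletion is lower), by role (colours), with limma's 95% interval as a line and filled points for an adjusted p under 0.05. TMA17 at -1.58, UBX5 at -1.32, UBI4 at -1.31, UBX6 at -1.03 and DDI1 at -0.96 are filled.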

How the data were processed

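RNA was measured in 3 wild type and 3 ltv1 deletion libraries of 3' tags. The submitters' processing notes name build R64 and the tools STAR, Salmon, FastQC, Trim Galore, R 4.1.3 and DESeq2 1.34.0. No source used here states their settings, the strand counted or whether molecular identifiers were used.

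For 7126 genes the deposited table gives the signal of every library after normalization. It also gives the authors' own log2 fold changes, with standard errors and p-values, raw and adjusted. In each library 100% of the deposited signal values above 0 were whole multiples (within 0.01) of the worth of 1 read, so whole reads were recovered. These are gene counts divided by a size factor, and reads without a stated use of molecular identifiers need not be independent molecules.

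Groups came from the labels. The main test was limma 3.58.1 in R 4.3.3 on log2(value + 1) for the 5663 genes whose mean signal reached 5, with Benjamini-Hochberg adjustment and a threshold of 0.05. For genes with low values this scale gives too small a change. All 40 members passed the filter. Alternatives were edgeR 4.0.16 and DESeq2 1.42.0 run on recovered reads, other scalings, filters and pseudocounts, a replicate block and leaving out libraries. Single members were also compared by an exact permutation test. The procedure was also run on simulated counts with the same set spread for every gene. That run does not measure how the procedure performs on these data.

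The members and lists were chosen with earlier results of these data known. Values in every library are given for each member past the threshold in limma or edgeR, each with no overlap between groups, the 2 smallest p-values of each subcomplex, and RPN4. The rule gave 25 members, and the other 15 are given by range or named with selected values. Promoter sequences are those of the R64 reference, from 250 bases before to 50 bases after the start of each gene's annotation (RefSeq), which in this annotation lies at the coding sequence. The labels do not say whether the replicates were separate cultures, so p-values measure only the spread between these samples.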

Additional observations from a re-analysis of the deposited data

How the results depend on the processing

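Of the 40 genes, 2 were lower with limma. The count was 5 with edgeR, 5 with a mean-variance trend, 5 with a pseudocount of 5, 8 with DESeq2 and 8 with a mean of at least 50. It was 0 with the replicate block and 0 without both libraries at odds with their LTV1 reads, and ran from 0 to 3 with 1 library left out. The count over all genes moved as well, from 395 of 5663 lower in the main test. It was 524 with edgeR, 492 with the trend, 473 with a pseudocount of 5 and 578 with DESeq2. With a mean of at least 50 it was 393 of 3331, and with the replicate block 151. With 1 library left out it ran from 17 to 448. The other pathway genes that were lower, 5 with limma, numbered 3 with the replicate block and 0 without both of those libraries, and from 0 to 4 with 1 library left out. Same-numbered libraries did not deviate together (correlations of -0.105, -0.198 and 0.0723 for replicates 1, 2 and 3), and not every library correlated best with its own number. The largest correlation, 0.278, was between wild type 2 and ltv1 deletion 1. These values show no shared effect of the numbers, but they cannot exclude a pairing. The median of the base was -0.53 with quantile normalization and -0.50 to -0.29 with 1 library left out. That of the lid was -0.43 to -0.20, of the core -0.64 to -0.37, and of all 40 genes -0.55 to -0.36. The sign of LTV1 turned with DESeq2 (1.59) and edgeR (1.59), and ran from -2.78 to 0.89 with 1 library left out, 0.48 without ltv1 deletion 3 and 0.69 without wild type 2. The share of genes with the Rpn4 element was 70.0% with 8 letters, against 1.68% of all protein-coding genes. A stretch with at most 1 of the 9 letters different lay in 90.0%, against 7.54%. The causes were not tested. None of the 25 members chosen by rule changed sign under any alternative run. Some of the other 15 did, among them UFD1 with edgeR (0.01). The number of negative members, 36 in the main test, was 35 with edgeR, 35 with DESeq2, 38 with quantile normalization and 33 without wild type 3. Depth allowed 32 to 2021 reads per member and library.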

Other observations

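The Rpn4 element GGTGGCAAA also lay in the windows of 42 tested genes outside the 40. Their median log2 fold change was -0.37, and 27 of the 42 were negative. With the 8-letter element GGTGGCAA the median was -0.17 over 70 such genes. Of the 42 genes with the 9-letter element, 4 were lower with limma, where 6.98% of all genes were. Of the same 42, 3 were higher, where 8.88% of all genes were, so both shares were near the background. The lower ones were PRD1 at -1.50, a metallopeptidase gene, UBI4 at -1.31, YPI1 at -0.93 and YCL042W at -1.56. The 42 include 5 of the 36 other pathway genes above (ECM29, UBI4, UBA1, CUZ1 and YAP1), so UBI4 is counted in both sets. The higher ones were NOP14 at 2.14, a factor of 40S ribosome assembly, BDF2 at 1.43 and DEF1 at 1.27. These genes were chosen after their values were seen.

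For 6 of the 42 the element was the very copy that lies in the window of a proteasome gene transcribed the other way. NOP14 shares its copy with RPN5, whose log2 fold change was -0.03 (95% interval -0.50 to 0.45), while NOP14 rose (adjusted p = 0.0248). YPI1, which encodes an inhibitor of protein phosphatase, shares its copy with RPN11 and fell (adjusted p = 0.0399), while RPN11 stood at -0.14. The other 4 pairs were ALG13 (-0.93) with RPT6 (-0.50), YTH1 (-0.58) with RPN7 (-0.43), MPO1 (-0.43) with SCL1 (-0.51), and GCD1 (0.19) with RPT4 (-0.29). No difference within a pair was tested.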
